A study of Homo sapiens with 9 samples.

Results

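The genes described here are 47 members of the DNA damage response, from the kinases that signal a lesion to the enzymes that carry out the main repair routes. They were chosen by gene symbol and not by a cutoff on measured values, though with earlier results of these data known. They made up 47 of the 60606 genes in the deposited expression table. All 47 had a mean TPM (a length-corrected share of the library) above 1 over the 9 libraries and so were among the 22909 genes tested. RNA was sequenced from 3 cell lines that all derive from U87, an established human glioblastoma line, with 3 libraries per line. U87 cells were the wild-type parental line, grown in serum. GSCs were glioblastoma stem cells derived from U87, kept in serum-free medium with EGF and bFGF and made radioresistant by repeated irradiation. Diff cells were the radioresistant progeny of those GSCs, differentiated in serum and then grown from clonal communities that the study selected. U87 and Diff cells were thus both in serum, and GSCs and Diff cells both descend from the irradiated cells. GSCs differ from U87 in irradiation, medium and stem cell derivation, Diff cells differ from U87 in irradiation, passage through the stem cell state and clonal selection, and Diff cells differ from GSCs in medium, differentiation and clonal selection. The shares of these within a comparison cannot be told apart. The labels name no irradiation shortly before RNA extraction and do not say that the 3 libraries of a line came from separate cultures, so the p-values measure the spread between libraries, which may be technical.

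A DNA break is first sensed at the lesion, where the kinases ATM, ATR and the DNA-dependent protein kinase phosphorylate histone H2AX, adaptor proteins and the checkpoint kinases CHEK1 and CHEK2. The break is then either rejoined directly by non-homologous end joining or, after its ends are trimmed by nucleases, copied from the sister chromatid by homologous recombination. Damaged or mispaired bases and breaks in a single strand are handled by base excision and mismatch repair. Radioresistance of glioblastoma stem cells has been linked to strong checkpoint signaling in this tumor type.

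The stem cell label was checked against 9 marker genes, of which 6 were tested, and they did not all move one way. Against U87, GSCs were higher for 2 of the 6 (FABP7 and POU3F2), lower for 1 (NES) and without a passing difference for 3 (OLIG2, SALL2 and CD44). Diff cells were lower than GSCs for 5 of the 6 and higher for POU3F2, a neural transcription factor, at an average of 6.48 TPM against 3.25 TPM (adjusted p = 0.00537). SOX2, PROM1 (CD133) and MSI1 had means below 1 TPM and were not tested. SOX2 was at 0.879 ± 0.101 TPM (SD, n = 3) in GSCs, 0.0383 ± 0.0663 TPM in U87 and 0.153 ± 0.0387 TPM in Diff cells, and PROM1 averaged 0.507, 0.171 and 0.0236 TPM in the same order. Neuronal and glial markers were mixed too. MAP2 was higher in Diff cells than in GSCs (1.30, adjusted p = 4.7e-05), and TUBB3 passed in no comparison. GFAP was lower than in U87 in Diff cells (-0.78) and GSCs (-0.86), and SLC1A3 was higher in Diff cells than in GSCs (0.50, adjusted p = 0.00834). RBFOX3, SYP, S100B and AQP4 were not tested. Among 4 markers of other cell types, the leukocyte genes PTPRC and CD3E averaged below 0.1 TPM in every line and the epithelial gene EPCAM between 1.18 and 1.64 TPM. The endothelial gene PECAM1 averaged 6.25 TPM in GSCs, 2.77 TPM in U87 and 2.92 TPM in Diff cells, higher in GSCs than in U87 (0.97, adjusted p = 0.0056) and Diff cells (adjusted p = 0.012), and its part in the results was not tested. Transcripts of the mitochondrial genome took 25.9% to 31.8% of a library and RN7SL1, the RNA of the signal recognition particle, took 5.73% to 9.79%. The values are shares of a bulk library, so fewer cells with a transcript and less of it per cell cannot be told apart.

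All 4 genes of the damage kinase route (ATM, ATR, CHEK1 and CHEK2) rose in Diff cells and 3 of them in GSCs. The rises of ATR and CHEK2 in Diff cells did not pass in every alternative. PRKDC, of the DNA-dependent protein kinase, was counted with end joining and passed in neither line. Of the 7 non-homologous end joining genes, none rose in Diff cells and 1, NHEJ1, rose in GSCs. In Diff cells against U87, 21 of the 47 genes passed the test (limma, Benjamini-Hochberg adjusted p under 0.05 over all tested genes), 17 higher and 4 lower. Over all tested genes 39.4% passed, 18.9% higher and 20.5% lower, and the 21 genes were 44.7% of the list. The median log2 fold change of the 47 genes was 0.18, beside -0.04 over all tested genes. No member changed by more than 1 on the log2 scale in Diff cells, a size that 12.3% of all tested genes reached (5.92% higher and 6.36% lower). The TPM ranges of Diff cells and U87 did not overlap for 33 members, beside 55.2% of all tested genes. The 4 lower genes became 2 when Diff replicate 1, Diff replicate 2, U87 replicate 2 or U87 replicate 3 was left out.

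In GSCs against U87, 28 of the 47 genes passed (59.6%), 19 higher and 9 lower. The background over all tested genes was 48.6%, with 25.3% higher and 23.3% lower. The median of the list was 0.14, beside 0.02 over all tested genes. ATM, CHEK1 and MRE11 rose by more than 1 on the log2 scale, and 17.1% of all tested genes changed by that much in either direction (9.52% higher and 7.53% lower). The ranges of GSCs and U87 did not overlap for 28 members, beside 55.8% of all tested genes. In Diff cells against GSCs, which tests directly whether the radioresistant lines differ, 23 members passed (48.9%), 12 higher and 11 lower, beside 34.8% of all tested genes, 15% higher and 19.8% lower. The median of the 47 genes was -0.03 and that of all tested genes -0.06. No member differed by more than 1, which 8.01% of all tested genes did (2.66% higher and 5.36% lower), and ranges did not overlap for 27 members, beside 46.7% of all tested genes. The 12 higher genes became 7 without Diff replicate 1, without Diff replicate 3 or without GSCs replicate 1. Both comparisons with U87 share the 3 U87 libraries.

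**Figure D1:**
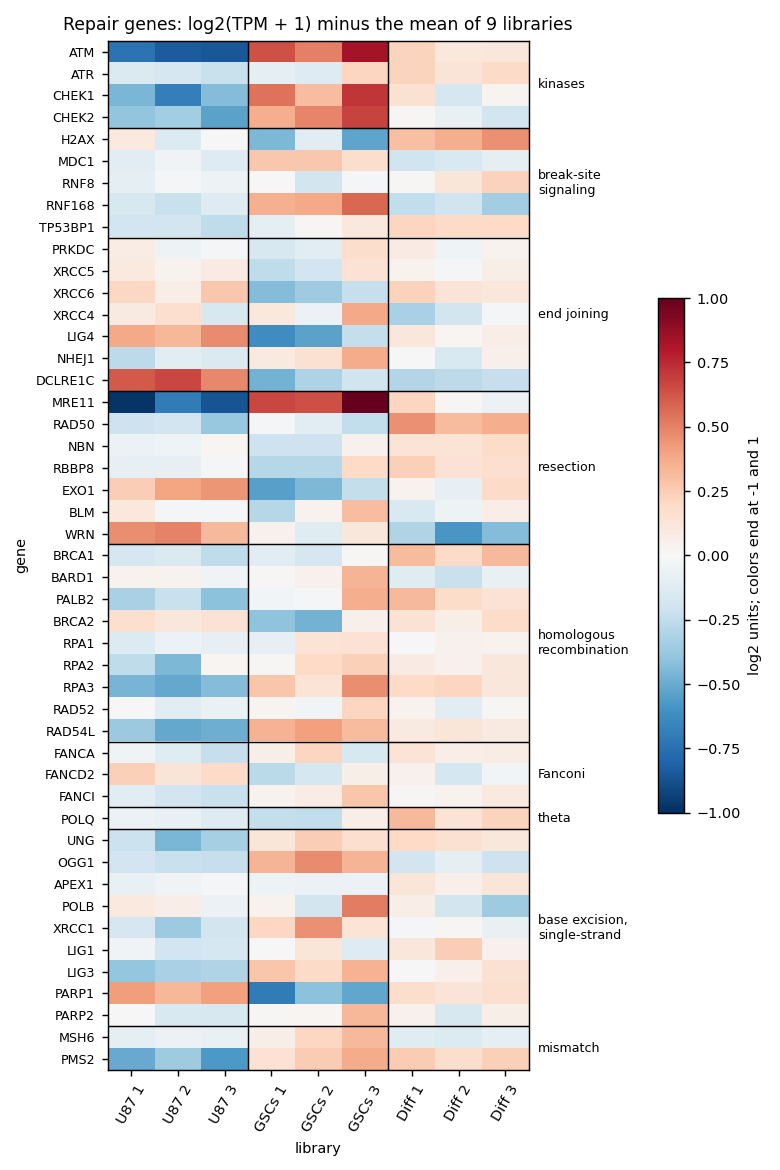
Deviation of each of the 47 genes from its mean over the 9 libraries, in log2(TPM + 1) units, with genes in rows by repair route and libraries in columns by line; red is above the mean and blue below, and colors end at -1 and 1. ATM, CHEK1, CHEK2 and MRE11 run from blue in U87 to red in GSCs, while LIG4, EXO1 and PARP1 run from red in U87 to blue in GSCs.

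The 47 transcripts covered a wide range of levels. XRCC5 (mean of 169 TPM over the 9 libraries), XRCC6 (161 TPM), H2AX (161 TPM) and APEX1 (139 TPM) lay above 100 TPM. A further 30 genes lay between 10 and 100 TPM and 13 below 10 TPM, with RNF8 lowest at 2.72 TPM and a median of 14.3 TPM. Libraries of GSCs varied most. The median coefficient of variation of a member was 11.95% in GSCs, 5.04% in U87 and 4.7% in Diff cells, and GSCs replicate 3 was the highest of its line for 35 of the 47 genes. For 8 members over 10% of the exonic bases overlap a gene on the opposite strand: MSH6 (16.2%), ATR (16.4%), XRCC1 (17.5%), FANCA (23.6%), RAD54L (25.1%), TP53BP1 (28.7%), OGG1 (29%) and LIG3 (30.5%). The strand setting of the counting is not given in the sources used here, so their reads may include some of the partner. A group of 13 members passed in none of the comparisons: RNF8, PRKDC, XRCC5, XRCC4, RBBP8, BLM, BARD1, RPA1, RAD52, FANCA, POLB, LIG1 and PARP2. Their log2 fold changes lay between -0.32 (XRCC4) and 0.31 (RBBP8), both in Diff cells against GSCs. The share of all tested genes that passed in none was not computed.

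All 4 genes of the damage kinase route rose in Diff cells, and 3 of the 4 rose further in GSCs. The median log2 fold change of the route was 0.45 in Diff cells and 0.99 in GSCs. Over all tested genes 18.9% rose in Diff cells and 25.3% in GSCs. ATM, the kinase that responds to double-strand breaks, was at 5.79, 5.37 and 5.27 TPM in U87, at 16.6, 15.0 and 19.2 TPM in GSCs and at 12.2, 11.1 and 11.2 TPM in Diff cells. The lines did not overlap, with GSCs highest and U87 lowest. ATM rose by 1.46 ± 0.10 (log2 fold change ± SE, adjusted p = 4.82e-06) in GSCs and by 0.95 ± 0.10 (adjusted p = 9.00e-05) in Diff cells, and its difference between Diff cells and GSCs was -0.51 ± 0.10 (adjusted p = 0.0044). CHEK1, the checkpoint kinase downstream of ATR, was at 9.86, 8.26 and 10 TPM in U87, 20.7, 17.4 and 23.5 TPM in GSCs and 15.6, 12.3 and 14.2 TPM in Diff cells. Its lines again fell into 3 separate ranges in the same order. CHEK1 rose by 1.05 ± 0.13 in GSCs (adjusted p = 0.000194) and by 0.53 ± 0.13 in Diff cells (adjusted p = 0.0111), and its difference between Diff cells and GSCs (-0.51, adjusted p = 0.0151) was lost without Diff replicate 2 (adjusted p = 0.0564).

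CHEK2, the checkpoint kinase downstream of ATM, was at 5.98, 6.23 and 5.33 TPM in U87, 10.8, 11.9 and 13.7 TPM in GSCs and 8.25, 7.72 and 7.03 TPM in Diff cells. It rose by 0.94 ± 0.11 in GSCs (adjusted p = 0.000133) and by 0.34 ± 0.11 in Diff cells (adjusted p = 0.0366). The rise in Diff cells did not pass without Diff replicate 1 or 2, without GSCs replicate 2 or without any of the U87 replicates 1 to 3 (adjusted p between 0.0501 and 0.116), nor with the replicate number as a block (adjusted p = 0.0766). ATR, which responds to single-stranded DNA at stalled forks, stood apart from the other kinases. It was at 9.79, 9.63 and 9.26 TPM in U87, 13, 12 and 12.7 TPM in Diff cells and 10.2, 9.94 and 12.9 TPM in GSCs, where the third library alone reached the level of Diff cells. ATR rose by 0.36 ± 0.10 in Diff cells (adjusted p = 0.0199), a call that ended without Diff replicate 1, Diff replicate 3 or U87 replicate 3 (highest adjusted p = 0.0637). In GSCs its difference of 0.18 ± 0.10 did not pass (adjusted p = 0.178).

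**Figure D2:**
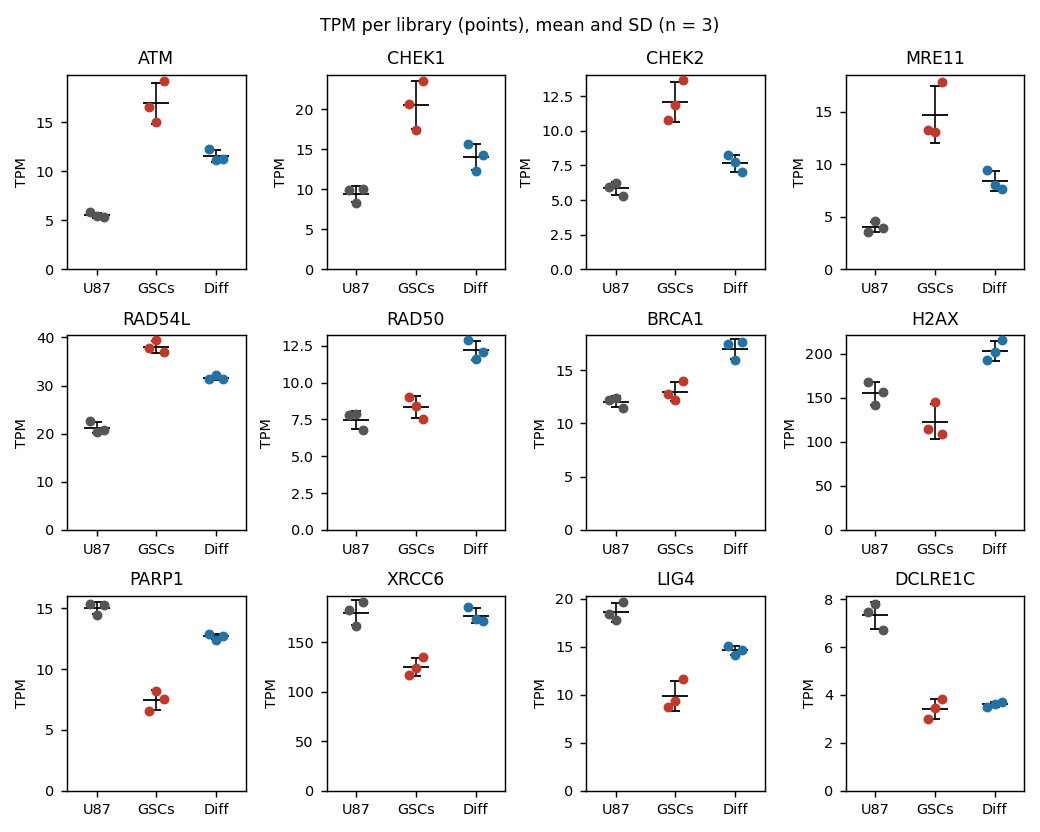
TPM of 12 repair genes in each library of U87, GSCs and Diff cells; points are libraries, horizontal lines the mean and bars the SD (n = 3), and each vertical axis starts at 0. In the panels of ATM, CHEK1, CHEK2, MRE11 and RAD54L the points of GSCs lie highest and those of U87 lowest, and in the panels of PARP1, XRCC6 and LIG4 the points of GSCs lie lowest.

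A group of 5 genes was higher in both radioresistant lines than in U87 and higher in GSCs than in Diff cells: ATM, CHEK1, CHEK2, MRE11 and RAD54L. Another 6 were lower in GSCs than in both other lines: H2AX, PARP1, EXO1, LIG4, XRCC6 and BRCA2. The second group shared only this order, since against U87 H2AX rose in Diff cells, EXO1 and LIG4 fell and the others did not pass. Shares of either order over all tested genes were not computed. The 250 bases before the first listed RefSeq start of each gene (GRCh38.p14) are shown for both whole groups, so that their windows can be compared, and letters in capitals mark the motifs searched on both strands. These were the CCAAT box (letters CCAAT, which read ATTGG on the other strand), the GC box (letters GGGCGG, which read CCGCCC on the other strand) and 4 E2F words (TTTCGCGC or TTTGGCGC, TTTCCCGC or TTTGCCGC). Each sequence is written 5′ to 3′ along the strand of its gene.
ATM (chr11:108222817-108223066, plus strand): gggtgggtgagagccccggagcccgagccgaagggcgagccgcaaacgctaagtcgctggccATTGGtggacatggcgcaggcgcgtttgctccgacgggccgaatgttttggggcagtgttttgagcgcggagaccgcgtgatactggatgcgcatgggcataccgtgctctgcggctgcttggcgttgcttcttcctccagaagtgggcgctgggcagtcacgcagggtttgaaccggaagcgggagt
CHEK1 (chr11:125625979-125626228, plus strand): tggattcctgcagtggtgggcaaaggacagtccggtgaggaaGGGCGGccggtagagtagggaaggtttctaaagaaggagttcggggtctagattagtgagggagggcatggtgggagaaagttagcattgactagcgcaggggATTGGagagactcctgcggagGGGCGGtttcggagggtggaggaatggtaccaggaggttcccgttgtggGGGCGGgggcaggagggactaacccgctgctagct
CHEK2 (chr22:28741821-28742070, minus strand): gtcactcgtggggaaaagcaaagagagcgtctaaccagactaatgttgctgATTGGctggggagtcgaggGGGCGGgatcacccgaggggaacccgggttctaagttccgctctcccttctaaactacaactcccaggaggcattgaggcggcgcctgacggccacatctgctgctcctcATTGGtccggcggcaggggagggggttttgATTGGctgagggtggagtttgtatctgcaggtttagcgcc
MRE11 (chr11:94493845-94494094, minus strand): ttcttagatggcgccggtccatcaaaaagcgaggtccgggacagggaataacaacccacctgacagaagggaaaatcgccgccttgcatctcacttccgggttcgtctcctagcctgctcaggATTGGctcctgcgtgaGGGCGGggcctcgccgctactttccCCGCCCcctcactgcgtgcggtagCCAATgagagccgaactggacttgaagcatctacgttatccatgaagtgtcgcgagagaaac
RAD54L (chr1:46247438-46247687, plus strand): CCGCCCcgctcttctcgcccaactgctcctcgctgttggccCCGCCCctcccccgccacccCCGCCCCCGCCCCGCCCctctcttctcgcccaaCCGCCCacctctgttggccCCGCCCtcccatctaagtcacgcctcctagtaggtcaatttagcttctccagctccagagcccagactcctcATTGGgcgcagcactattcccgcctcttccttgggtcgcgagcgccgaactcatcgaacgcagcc
The next sequences belong to the genes that were lower in GSCs.
H2AX (chr11:119095466-119095715, minus strand): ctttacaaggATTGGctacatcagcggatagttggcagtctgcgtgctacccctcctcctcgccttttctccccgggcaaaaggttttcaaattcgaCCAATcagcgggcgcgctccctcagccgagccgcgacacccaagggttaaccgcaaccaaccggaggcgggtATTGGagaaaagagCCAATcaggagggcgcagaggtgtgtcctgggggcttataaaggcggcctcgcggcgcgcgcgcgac
PARP1 (chr1:226408094-226408343, minus strand): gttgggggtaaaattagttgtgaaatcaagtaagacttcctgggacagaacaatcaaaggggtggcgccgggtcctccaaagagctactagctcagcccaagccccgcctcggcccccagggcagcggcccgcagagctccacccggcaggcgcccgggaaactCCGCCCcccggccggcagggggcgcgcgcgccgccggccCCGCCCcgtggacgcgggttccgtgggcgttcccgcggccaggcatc
EXO1 (chr1:241847954-241848203, plus strand): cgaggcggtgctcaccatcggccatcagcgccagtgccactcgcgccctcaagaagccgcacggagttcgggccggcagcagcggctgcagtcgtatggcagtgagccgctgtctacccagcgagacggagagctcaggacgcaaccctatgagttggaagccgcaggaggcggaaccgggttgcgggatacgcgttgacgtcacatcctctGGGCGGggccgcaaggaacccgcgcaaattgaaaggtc
LIG4 (chr13:108218350-108218599, minus strand): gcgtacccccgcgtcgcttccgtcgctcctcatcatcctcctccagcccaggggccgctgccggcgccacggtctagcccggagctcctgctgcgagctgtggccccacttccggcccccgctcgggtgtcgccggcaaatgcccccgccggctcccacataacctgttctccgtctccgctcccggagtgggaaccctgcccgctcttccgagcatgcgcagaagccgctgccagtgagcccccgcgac
XRCC6 (chr22:41621045-41621294, plus strand): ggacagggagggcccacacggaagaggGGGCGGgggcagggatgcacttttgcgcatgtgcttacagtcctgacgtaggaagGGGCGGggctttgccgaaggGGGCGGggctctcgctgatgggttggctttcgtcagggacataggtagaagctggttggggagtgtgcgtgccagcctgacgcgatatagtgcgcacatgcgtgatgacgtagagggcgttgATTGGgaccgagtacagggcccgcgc
BRCA2 (chr13:32315258-32315507, plus strand): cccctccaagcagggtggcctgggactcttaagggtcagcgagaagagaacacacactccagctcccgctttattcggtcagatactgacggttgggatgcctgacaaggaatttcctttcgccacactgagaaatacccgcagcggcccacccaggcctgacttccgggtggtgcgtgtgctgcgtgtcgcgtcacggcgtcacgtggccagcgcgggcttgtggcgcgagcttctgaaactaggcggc

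All 5 windows of the first group held at least 1 CCAAT box, with 3 in CHEK2, 2 in MRE11 and 1 each in ATM, CHEK1 and RAD54L. RAD54L held 7 GC boxes and CHEK1 held 3, while ATM held none. In the second group H2AX held 4 CCAAT boxes and no GC box, XRCC6 held 1 CCAAT box and 3 GC boxes, PARP1 and EXO1 held GC boxes only, and LIG4 and BRCA2 held neither. A window was found for 39 of the 47 members. A CCAAT box stood in 20 of them (51.3%), beside 34.9% of the 11222 tested genes with a window and 33% of all 27305 genes with one. A GC box stood in 29 (74.4%), beside 64.1% of tested genes and 42.3% of all genes. An E2F word stood in 3 (7.7%), those of FANCA, LIG1 and PMS2, beside 4.3% of tested genes and 2.8% of all genes. These matches describe letters in a window and were not tested for binding. Only the first listed start was searched, though ATM, RAD54L and EXO1 have 2 listed starts, CHEK1 has 3 and LIG4 has 5. The windows of ATM, CHEK1 and CHEK2 lie inside the spans that GENCODE release 29 gives these genes.

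The 5 genes that mark chromatin at a break followed different patterns, except that RNF168 and MDC1 shared theirs. H2AX encodes the histone variant whose phosphorylated form marks breaks. It was at 168, 142 and 156 TPM in U87, 193, 202 and 215 TPM in Diff cells and 114, 146 and 109 TPM in GSCs. Diff cells were highest without overlap, and the second GSCs library lay within the U87 range. H2AX rose by 0.39 ± 0.11 in Diff cells (adjusted p = 0.0224) and fell by 0.35 in GSCs (adjusted p = 0.03), and the difference between the radioresistant lines was 0.73 ± 0.11 (adjusted p = 0.00118). The rise in Diff cells was lost without Diff replicate 2 or 3 or U87 replicate 2 or 3 (highest adjusted p = 0.0769). The fall in GSCs was lost without GSCs replicate 1 or 3 or U87 replicate 1 or 3 (highest adjusted p = 0.102) and with the block (adjusted p = 0.059), whereas the difference between Diff cells and GSCs passed in every alternative.

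RNF168, the ubiquitin ligase that modifies histone H2A around a break, was at 24.8, 23.8 and 25.4 TPM in U87, 36.0, 36.6 and 42.0 TPM in GSCs and 23.3, 24.2 and 21.7 TPM in Diff cells. GSCs lay above both other lines, which overlapped. RNF168 rose by 0.61 ± 0.07 in GSCs (adjusted p = 0.000184) and came down again in Diff cells, with a difference from GSCs of -0.70 (adjusted p = 0.000185). MDC1, the adaptor that binds phosphorylated H2AX, showed the same order at a smaller size, with a rise of 0.33 ± 0.06 in GSCs (adjusted p = 0.0020) and a difference of -0.39 between Diff cells and GSCs (adjusted p = 0.00142). TP53BP1, which protects ends from resection, was at 31.7, 32.0 and 30.4 TPM in U87, 34.1, 36.7 and 39.2 TPM in GSCs and 42.5, 41.7 and 41.9 TPM in Diff cells. It rose by 0.41 ± 0.06 in Diff cells (adjusted p = 0.000697) and by 0.22 ± 0.06 in GSCs (adjusted p = 0.016), the latter lost without U87 replicate 3 (adjusted p = 0.0588). Its difference between the radioresistant lines (0.19, adjusted p = 0.0359) ended without any of the Diff replicates 1 to 3, without GSCs replicate 1 or 2 and without U87 replicate 1 or 2 (highest adjusted p = 0.117), and with the block (adjusted p = 0.0742). RNF8, the ligase upstream of RNF168, did not pass in any comparison.

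In non-homologous end joining no gene was higher in Diff cells and 2 of 7 were lower, and in GSCs 1 was higher and 3 lower. The median log2 fold change was -0.05 in Diff cells and -0.17 in GSCs. Genes that passed were 28.6% of the route in Diff cells and 57.1% in GSCs, beside 39.4% and 48.6% of all tested genes. DCLRE1C encodes Artemis, the nuclease that opens hairpins and trims ends. It was at 7.46, 7.80 and 6.71 TPM in U87, 2.98, 3.46 and 3.82 TPM in GSCs and 3.52, 3.61 and 3.71 TPM in Diff cells. Both radioresistant lines lay below U87 without overlap and overlapped each other. DCLRE1C fell by 0.85 in Diff cells (adjusted p = 0.000364) and by 0.91 in GSCs (adjusted p = 0.000174). LIG4, the ligase that seals the break, was at 18.4, 17.8 and 19.7 TPM in U87, 8.68, 9.30 and 11.6 TPM in GSCs and 15.1, 14.1 and 14.6 TPM in Diff cells. It fell by 0.86 in GSCs (adjusted p = 0.000157) and by 0.33 in Diff cells (adjusted p = 0.0339), and the lines did not overlap. The fall in Diff cells was lost when any of the Diff replicates 1 to 3 or U87 replicates 1 to 3 was left out (highest adjusted p = 0.108) and when TPM were rescaled without mitochondrial genes and RN7SL1 (adjusted p = 0.0634).

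XRCC6, the Ku70 subunit of the ring that binds broken ends, was at 183, 166 and 191 TPM in U87, 117, 124 and 135 TPM in GSCs and 186, 174 and 172 TPM in Diff cells. GSCs lay below both other lines. XRCC6 fell by 0.52 in GSCs (adjusted p = 0.000377) and was higher in Diff cells than in GSCs by 0.50 ± 0.07 (adjusted p = 0.000949). Its partner XRCC5 (Ku80) averaged 177 ± 3.95 TPM in U87, 158 ± 24.4 TPM in GSCs and 172 ± 4.53 TPM in Diff cells, and its difference of -0.17 in GSCs did not pass (adjusted p = 0.169). PRKDC, the catalytic subunit of the DNA-dependent protein kinase, was at 91.8, 84.3 and 86.3 TPM in U87, 78.0, 80.7 and 98.6 TPM in GSCs and 92.6, 84.7 and 89.6 TPM in Diff cells. The 3 lines overlapped and no comparison passed, with log2 fold changes of 0.02 in Diff cells and -0.03 in GSCs. NHEJ1, the scaffold also called XLF, rose by 0.38 ± 0.12 in GSCs (adjusted p = 0.0279), which ended without GSCs replicate 3, U87 replicate 1 or U87 replicate 3 (highest adjusted p = 0.0921). In the annotation 65.4% of its exonic bases are shared with an overlapping gene on the same strand, so its reads may belong to either.

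The 3 subunits of the MRN complex, which senses ends and starts their resection, followed different patterns. MRE11, its nuclease, was at 3.54, 4.53 and 3.93 TPM in U87, 13.3, 13.1 and 17.8 TPM in GSCs and 9.41, 8.03 and 7.62 TPM in Diff cells. The lines did not overlap, and MRE11 had the highest log2 fold change of the 47 genes in GSCs, 1.64 ± 0.14 (adjusted p = 2.02e-05). It rose by 0.90 ± 0.14 in Diff cells (adjusted p = 0.00103), less than in GSCs by a log2 difference of -0.74 (adjusted p = 0.0041). RAD50, its tethering ATPase, was at 7.80, 7.87 and 6.78 TPM in U87, 9.04, 8.42 and 7.53 TPM in GSCs and 12.9, 11.6 and 12.1 TPM in Diff cells. Diff cells stood above both other lines, which overlapped. RAD50 rose by 0.64 ± 0.10 in Diff cells (adjusted p = 0.000825) and was higher there than in GSCs (0.50, adjusted p = 0.00411). Of its exonic bases 79.7% are shared with an overlapping gene on the same strand, which limits this reading. NBN, the adaptor of the complex, differed only between Diff cells and GSCs (0.28, adjusted p = 0.0431), and that call was lost without any of the Diff replicates 1 to 3, GSCs replicates 1 and 2 or U87 replicates 1 to 3 (highest adjusted p = 0.13) and with the block (adjusted p = 0.0586).

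The other resection genes that passed were lower than in U87. EXO1, the exonuclease of long-range resection, was at 18.9, 21.1 and 21.8 TPM in U87, 10.6, 11.3 and 13.3 TPM in GSCs and 16.3, 14.9 and 18.2 TPM in Diff cells. GSCs were lowest and U87 highest, without overlap. EXO1 fell by 0.77 in GSCs (adjusted p = 0.000374) and by 0.31 in Diff cells (adjusted p = 0.0467). The fall in Diff cells ended without Diff replicate 1 or 2, GSCs replicate 2, U87 replicate 2 or U87 replicate 3 (highest adjusted p = 0.151), and in 3 other settings (highest adjusted p = 0.0896). WRN, the helicase mutated in Werner syndrome, was at 12.4, 12.7 and 11.2 TPM in U87, 9.01, 7.95 and 9.52 TPM in GSCs and 6.88, 5.5 and 6.20 TPM in Diff cells. It was the member that was lowest in Diff cells and intermediate in GSCs, with U87 highest. Its log2 fold change was -0.87 in Diff cells (adjusted p = 0.000231) and -0.42 in GSCs (adjusted p = 0.0104). RBBP8 (CtIP, the MRN cofactor) and BLM (the Bloom helicase) did not pass.

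In homologous recombination 4 of 9 genes rose in Diff cells and none fell, while in GSCs 4 rose and 1 fell. The median log2 fold change was 0.31 in Diff cells and 0.16 in GSCs. Genes that passed were 44.4% of the route in Diff cells and 55.6% in GSCs, beside 39.4% and 48.6% of all tested genes. RAD54L, the translocase that acts with the recombinase during strand exchange, was at 22.5, 20.4 and 20.7 TPM in U87, 37.8, 39.4 and 36.9 TPM in GSCs and 31.4, 32.1 and 31.4 TPM in Diff cells. Its lines were well apart, and it rose by 0.81 ± 0.06 in GSCs (adjusted p = 6.34e-06) and by 0.56 ± 0.06 in Diff cells (adjusted p = 9.04e-05). RPA3, the smallest subunit of the protein that coats single-stranded DNA, rose by 0.76 ± 0.09 in GSCs (adjusted p = 0.000121) and by 0.64 ± 0.09 in Diff cells (adjusted p = 0.000448), with no passing difference between the lines (-0.12, adjusted p = 0.339). The other RPA subunits changed less. RPA2 rose by 0.37 ± 0.12 in GSCs (adjusted p = 0.026), lost without GSCs replicate 2 or 3 or U87 replicate 1 or 2 (highest adjusted p = 0.0785), and RPA1 did not pass. PALB2, which links BRCA1 to BRCA2, rose by 0.54 ± 0.11 in Diff cells (adjusted p = 0.00527) and by 0.42 ± 0.11 in GSCs (adjusted p = 0.0134).

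BRCA1 and BRCA2 differed between the lines in different ways. BRCA1, which promotes resection, was at 12.2, 12.4 and 11.4 TPM in U87, 12.8, 12.2 and 14 TPM in GSCs and 17.5, 15.9 and 17.6 TPM in Diff cells. Diff cells lay above both other lines, which overlapped. BRCA1 rose by 0.47 ± 0.08 in Diff cells (adjusted p = 0.00152) and was 0.37 ± 0.08 higher there than in GSCs (adjusted p = 0.00706). BRCA2, which loads the recombinase, was at 14.2, 13.6 and 14 TPM in U87, 9.24, 8.76 and 13.0 TPM in GSCs and 14, 13.1 and 14.4 TPM in Diff cells. The third GSCs library lay close to the other lines and the first and second well below. BRCA2 fell by 0.42 in GSCs (adjusted p = 0.0273), a call lost without GSCs replicate 1 or 2 or any of the U87 replicates 1 to 3 (highest adjusted p = 0.0898). It was higher in Diff cells than in GSCs (0.41, adjusted p = 0.0404), which was lost without any library but GSCs replicate 3 (highest adjusted p = 0.123). BARD1, the partner of BRCA1, and RAD52, an annealing protein, did not pass in any comparison.

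The Fanconi anemia genes, which handle crosslinks between DNA strands, changed little. None of the 3 passed in Diff cells, beside 39.4% of all tested genes. In GSCs FANCI rose by 0.31 ± 0.08 (adjusted p = 0.0113) and its partner FANCD2 fell by 0.31 (adjusted p = 0.0296), the latter lost without GSCs replicate 1 or 2 or U87 replicate 1 or 3 (highest adjusted p = 0.101). FANCA, a core complex subunit, did not pass. POLQ, the polymerase theta of error-prone end joining, was at 11.6, 11.5 and 11.1 TPM in U87, 10.1, 10.1 and 12.8 TPM in GSCs and 15.5, 13.5 and 14.4 TPM in Diff cells. Diff cells were highest, without overlap. POLQ rose by 0.32 ± 0.10 in Diff cells (adjusted p = 0.0359), which ended without Diff replicate 1 or 3 or any of the U87 replicates 1 to 3 (highest adjusted p = 0.118) and with the block (adjusted p = 0.06). Its difference from GSCs (0.37, adjusted p = 0.0214) ended without Diff replicate 1 or 3 or GSCs replicate 1 or 2 (highest adjusted p = 0.0755).

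In base excision and single-strand break repair, 3 of 9 genes rose in Diff cells, and in GSCs 4 rose and 1 fell. Those that passed were 33.3% of the route in Diff cells and 55.6% in GSCs, beside 39.4% and 48.6% of all tested genes. PARP1, the enzyme that flags single-strand breaks with poly(ADP-ribose), was at 15.4, 14.5 and 15.3 TPM in U87, 6.58, 8.24 and 7.57 TPM in GSCs and 12.9, 12.4 and 12.7 TPM in Diff cells. The lines did not overlap, with GSCs lowest. PARP1 fell by 0.93 in GSCs (adjusted p = 3.38e-05), and Diff cells were 0.70 ± 0.09 above GSCs (adjusted p = 0.000419). Its log2 fold change of -0.23 between Diff cells and U87 did not pass (adjusted p = 0.0682). Its paralog PARP2 did not pass in any comparison. XRCC1, the scaffold recruited to PARP1, rose by 0.51 ± 0.09 in GSCs (adjusted p = 0.00177), and its partner LIG3, the ligase, rose by 0.61 ± 0.08 in GSCs (adjusted p = 0.00021) and by 0.41 ± 0.08 in Diff cells (adjusted p = 0.00298). The difference of XRCC1 between Diff cells and GSCs (-0.29, adjusted p = 0.0365) was lost without any of the Diff replicates 1 to 3, GSCs replicates 1 and 2, U87 replicate 1 or U87 replicate 3 (highest adjusted p = 0.11), with the block (adjusted p = 0.0687) and under each of the 3 other scalings (highest adjusted p = 0.0926).

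Both glycosylases, which remove damaged bases, rose in GSCs, and UNG also rose in Diff cells. OGG1, which excises oxidized guanine, was at 11.9, 11.6 and 11.6 TPM in U87, 17.6, 19.4 and 17.7 TPM in GSCs and 11.9, 12.8 and 11.8 TPM in Diff cells. GSCs lay above both other lines, which overlapped, and OGG1 rose there by 0.60 ± 0.07 (adjusted p = 0.000126). UNG, which excises uracil, rose in both lines, to 21.5 ± 0.979 TPM in GSCs and 21.1 ± 0.704 TPM in Diff cells, from 14.8 ± 1.29 TPM in U87 (adjusted p = 0.000561 and 0.000965), and the difference between Diff cells and GSCs of -0.02 did not pass (adjusted p = 0.845). APEX1, the endonuclease that cuts at the resulting abasic site, rose by 0.14 ± 0.04 in Diff cells (adjusted p = 0.0262), lost without Diff replicate 1 or 3 or any of the U87 replicates 1 to 3 (highest adjusted p = 0.105) and with the block (adjusted p = 0.0609). It was higher in Diff cells than in GSCs by 0.15 (adjusted p = 0.0199), lost without Diff replicate 1 or 3 or GSCs replicate 1 (highest adjusted p = 0.0812) and with the block (adjusted p = 0.0506). POLB and LIG1, a gap-filling polymerase and a ligase, did not pass. In mismatch repair PMS2, a subunit of the MutL complex, rose in Diff cells (0.70 ± 0.10, adjusted p = 0.000482) and in GSCs (0.74 ± 0.10, adjusted p = 0.000274). The annotation lists 11 pseudogenes named for PMS2, so its count is uncertain. The same limit applies to members with fewer such pseudogenes. These were XRCC6 (5), CHEK2 (4), RPA2 (3), PARP1 (2), UNG (2) and, with 1 each, DCLRE1C, MRE11, RBBP8 and FANCD2. MSH6, which recognizes mispairs, rose by 0.27 ± 0.08 in GSCs (adjusted p = 0.0165), lost without U87 replicate 1 (adjusted p = 0.0552), and Diff cells lay below GSCs (-0.31, adjusted p = 0.0127).

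**Figure D3:**
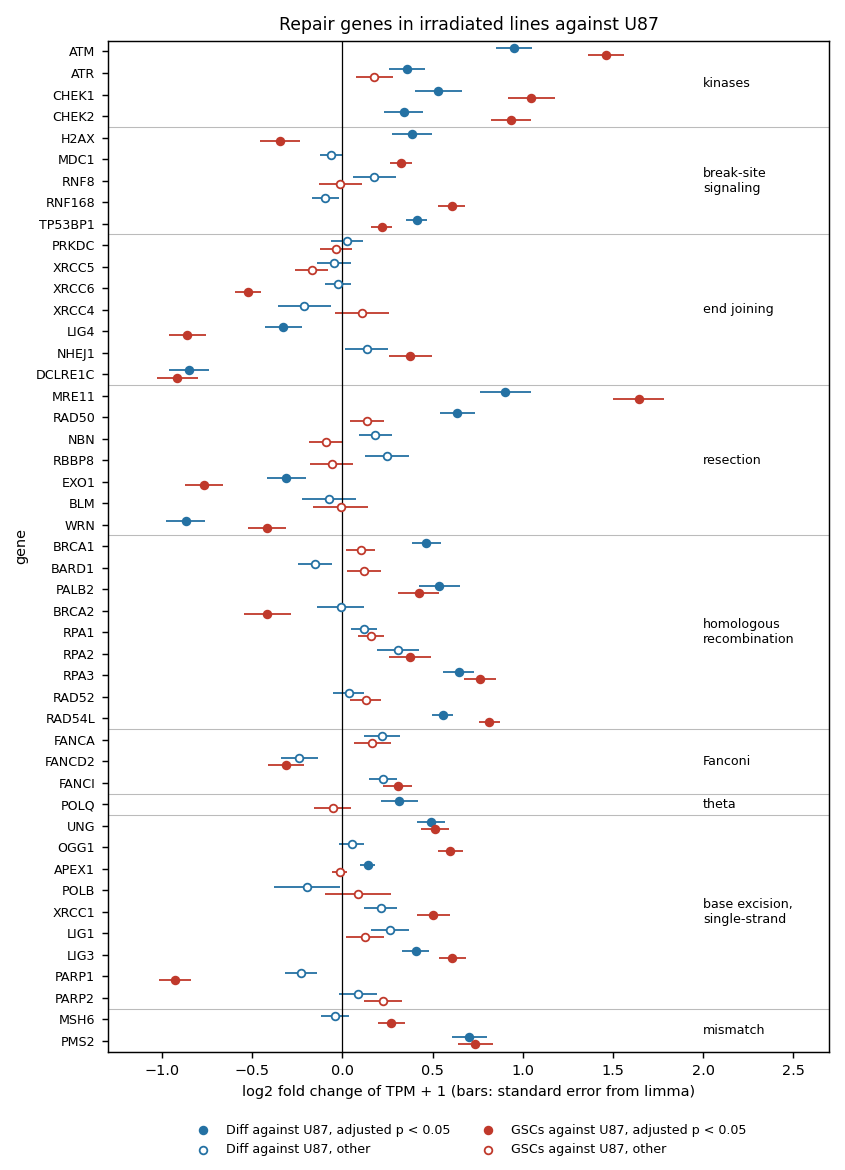
Log2 fold change of TPM + 1 of each of the 47 genes in Diff cells (blue) and GSCs (red) against U87, by route; bars are the standard error from limma, and filled points passed an adjusted p of 0.05. The red points of ATM, CHEK1 and MRE11 lie beyond 1, and H2AX is the gene with filled points on both sides of 0.

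The patterns over the 3 comparisons grouped genes across routes. Shares of all tested genes with each pattern were not computed, so whether the counts below are unusual is unknown. A group of 5 genes was higher in both radioresistant lines and highest in GSCs (ATM, CHEK1, CHEK2, MRE11 and RAD54L), and another 5 were higher in both lines with no passing difference between them (PALB2, RPA3, UNG, LIG3 and PMS2). A further 5 were also higher in GSCs than in both other lines, with no passing difference between Diff cells and U87 (MDC1, RNF168, OGG1, XRCC1 and MSH6). Conversely, 6 genes were higher in Diff cells than in both other lines. Among them RAD50, BRCA1, POLQ and APEX1 did not differ by the test between GSCs and U87, TP53BP1 was also higher in GSCs than in U87, and H2AX was lower there. H2AX thus also belonged to the 6 genes lower in GSCs than in both other lines, with XRCC6, BRCA2, PARP1, LIG4 and EXO1. WRN was lower in Diff cells than in both other lines. DCLRE1C, NHEJ1, RPA2, FANCI, FANCD2, NBN and ATR made up the remaining patterns. In the main fit the groups cut across the routes. The 6 genes highest in Diff cells came from break-site chromatin signaling, resection, recombination, polymerase theta end joining and base excision. Only RAD50 and BRCA1 of these kept both calls in every alternative run. POLQ and APEX1, the only genes here from polymerase theta end joining and base excision, lost both calls in some. In the other groups, some alternatives ended both calls that place BRCA2. They also ended the fall of H2AX and the rise of MSH6 in GSCs and the rise of CHEK2 in Diff cells. The difference between Diff cells and GSCs was lost in some for CHEK1 and XRCC1.

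Members were next set beside their neighbors on the chromosome. For each gene, up to 25 tested genes on each side with a mean above 5 TPM were taken by position in GENCODE release 29 (GRCh38), and the median of their log2 fold changes was given beside the value of the member. Compared with U87, 39 of the 47 members had the same sign as their neighbor median in Diff cells and 31 did in GSCs. The share over all tested genes was not computed, so whether these counts are unusual is unknown. Some neighbor medians lay near 0, such as those of PRKDC (0.0004) and BRCA2 (-0.004) in Diff cells. Across the 47 genes, Pearson's r between the member and its neighbor median was 0.735 in Diff cells and 0.544 in GSCs, a description only, since members on the same chromosome share neighbors and all values share the U87 libraries. ATM (chr11:108222484-108369102), MRE11 (chr11:94415578-94493908), CHEK1 (chr11:125625136-125676255) and H2AX (chr11:119093854-119095467) lie on chromosome 11. The neighbors of ATM had a median of 0.65 in Diff cells and 0.77 in GSCs, beside its own 0.95 and 1.46, and ATM was above 37 and 42 of its 50 neighbors. MRE11, at 0.90 and 1.64, stood above 38 and 46 of 50 neighbors whose medians were 0.61 and 0.71. CHEK1, at 0.53 in Diff cells, stood above 23 of 50 neighbors with a median of 0.61, and at 1.05 in GSCs above 38 of 50 with a median of 0.66.

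H2AX went with its neighbors in Diff cells (0.39, median 0.45) and against them in GSCs, where it was at -0.35, above 1 of 50 neighbors with a median of 0.78. The neighbor median was below 0 for all 4 genes that fell in Diff cells, though only at -0.08 for LIG4. In GSCs it was below 0 for 6 of the 9 that fell. It was above 0 there for H2AX, LIG4 and BRCA2, which was at -0.42 beside 0.05. DCLRE1C (chr10:14897359-14954432) was at -0.85 in Diff cells and -0.91 in GSCs, beside neighbor medians of -0.83 and -0.88, and all 50 of its neighbors were below 0 in Diff cells. PARP1 (chr1:226360691-226408079) was at -0.93 in GSCs beside a median of -0.70, and EXO1 (chr1:241847967-241895148) was at -0.77 beside -0.43. WRN (chr8:31033801-31173769) was at -0.87 in Diff cells beside -0.60 and at -0.42 in GSCs beside -0.69. RPA3 and PMS2, both on chromosome 7, were at 0.64 and 0.70 in Diff cells beside medians of 0.43 and 0.41, and at 0.76 and 0.74 in GSCs beside 0.54 and 0.50. XRCC1 rose in GSCs by 0.51 beside neighbors with a median of 1.45. No DNA copy number was measured, and the part of the neighborhood in these changes was not tested.

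Other members changed away from their neighbors. CHEK2 (chr22:28687743-28742422) rose by 0.94 in GSCs beside a neighbor median of -0.08 and stood above 44 of 50 neighbors. RAD54L (chr1:46247688-46278473) rose by 0.81 in GSCs and 0.56 in Diff cells beside medians of 0.10 and 0.04. LIG4 (chr13:108207439-108218368) fell by 0.86 in GSCs beside a median of 0.27 and stood above 5 of 50 neighbors. XRCC6 (chr22:41621119-41664048) fell by 0.52 in GSCs beside a median of -0.10. RAD50 rose by 0.64 in Diff cells beside a median of -0.16. For 12 members the neighbor median was larger than 0.4 in size in at least 1 radioresistant line, a limit chosen after the values were seen: ATM, CHEK1, DCLRE1C, EXO1, H2AX, MRE11, PARP1, PMS2, RBBP8, RPA3, WRN and XRCC1. Of these, 9 passed in Diff cells and 11 in GSCs. Of the other 35 members, 12 passed in Diff cells (34.3%, 11 higher and 1 lower) and 17 in GSCs (48.6%, 13 higher and 4 lower). Over all tested genes 39.4% passed in Diff cells, 18.9% higher and 20.5% lower. In GSCs 48.6% passed, 25.3% higher and 23.3% lower. Since the limit was chosen on these same values, the split cannot show what part the neighborhood had, which was not tested.

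**Figure D4:**
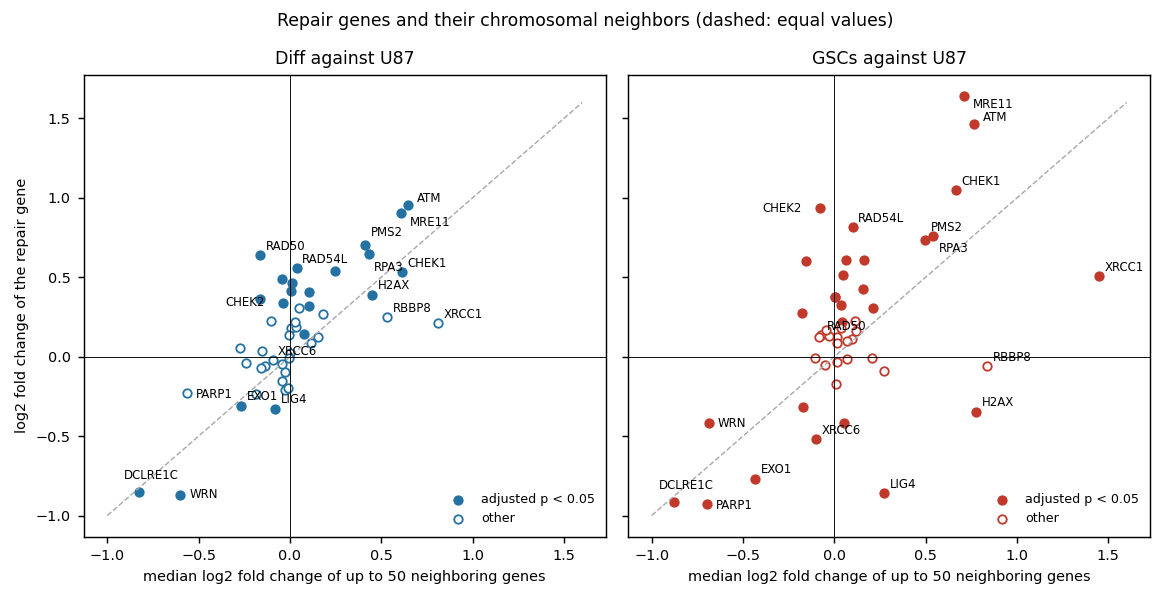
Log2 fold change of each of the 47 genes (vertical axis) against the median log2 fold change of up to 50 neighboring genes on its chromosome (horizontal axis), for Diff cells and GSCs against U87; filled points passed an adjusted p of 0.05 and the dashed line marks equal values. DCLRE1C lies near the line in both panels, MRE11 and ATM lie above it, and H2AX and LIG4 lie far below it in GSCs.

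Other repair genes were counted from a wider list of 145, of which 140 were tested. In Diff cells 30 rose and 20 fell (35.7%), in GSCs 37 rose and 25 fell (44.3%), and between Diff cells and GSCs 20 were higher and 22 lower (30%). Each share was below that of all tested genes. Among the largest rises in Diff cells were those of FIGNL1, a recombination ATPase (0.90), HUS1, a subunit of the checkpoint clamp (0.83), ERCC6, a factor of transcription-coupled repair (0.82), and CDKN1A, a cyclin-dependent kinase inhibitor that stops the cell cycle (0.57). The largest falls were those of NEIL2, a glycosylase (-0.86), ERCC1, a subunit of the nuclease of excision repair (-0.80), and PAXX, an end joining factor (-0.74). In GSCs HUS1 (1.06), SFR1 (0.92) and FIGNL1 (0.84) rose most, and BRCC3, a deubiquitinase at breaks (-1.14), NEIL2 (-1.09) and CDC25C, a mitotic phosphatase (-1.06), fell most. Between Diff cells and GSCs, BRCC3 (0.71) was among the highest, and SFR1 (-0.91) and POLM, an end joining polymerase (-0.88), were the lowest. MGMT, which reverses the alkylation caused by temozolomide, was listed at 0 in 7 of the 9 libraries and at no more than 0.0422 TPM in the others.

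Several repair genes are transcribed mainly in cycling cells, so cell cycle genes were counted beside them. Of 47 tested cell cycle genes, 26 fell and 7 rose in GSCs, with a median log2 fold change of -0.46, and 16 of the falls were larger than 1. In Diff cells 17 fell and 6 rose, with a median of -0.13. Between Diff cells and GSCs 25 were higher and 1 lower. Over all tested genes 23.3% fell and 25.3% rose in GSCs, and 7.53% fell by more than 1. In Diff cells 20.5% of all tested genes fell and 18.9% rose. Between Diff cells and GSCs 15% of them were higher and 19.8% lower. The proliferation marker MKI67 was at 244 ± 9.81 TPM in U87, 118 ± 7.08 TPM in GSCs and 235 ± 4.22 TPM in Diff cells, and the mitotic genes CENPF (-2.44), CENPE (-2.27) and PLK1 (-2.09) fell most in GSCs. The summed level of the cell cycle list ranged from 3742 to 4069 TPM in U87, 2243 to 2426 TPM in GSCs and 3268 to 3412 TPM in Diff cells. The summed level of the 47 repair genes ranged from 1275 to 1344, from 1251 to 1427 and from 1422 to 1474 TPM in the same order, so GSCs overlapped U87 while Diff cells lay above U87. This sum is weighted to the most abundant members, XRCC5, XRCC6, H2AX and APEX1, and is no measure of a typical member. The 6 repair genes lower in GSCs than in both other lines (PARP1, EXO1, BRCA2, LIG4, XRCC6 and H2AX) were picked for that order. Their sharing the fall of most cell cycle genes in GSCs was thus given in advance. In Diff cells against U87, EXO1 and LIG4 fell, H2AX rose and the others did not pass. CHEK1 and RAD54L rose in GSCs, against the median of the cell cycle list. The 7 cell cycle genes that also rose there were MCM7 (0.58), E2F2 (0.57), CCNE2 (0.54), CDT1 (0.41), MCM2 (0.37), MCM4 (0.27) and E2F1 (0.27). The part of cell cycling in these changes was not tested.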

How the data were processed

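Per the labels, total RNA was depleted of ribosomal RNA and made into directional paired-end libraries, whereas the methods of the study name oligo(dT) enrichment. The submitters' processing notes name FastQC 0.11.9, Trimmomatic 0.39, HISAT2 2.2.1, featureCounts 2.0.5, R 4.2.0 and GRCh38, and the annotation release is not given in the sources used here. The authors deposited log2(TPM + 1) values, which keep no read depth, so no counting interval was given. The 22909 genes with a mean above 1 TPM were fitted with limma 3.58.1 (R 4.3.3; lmFit, eBayes with trend) on log2(TPM + 1) in 1 model of the 3 lines, with Benjamini-Hochberg adjustment per comparison. Fold changes on this scale understate those of low genes. The fit was tested on simulated data. Routes follow the standard roles of the genes. The members, gene lists and tests were chosen with earlier results of these data known. All 47 members matched GENCODE 29. Alternatives covered the pseudocount (0.1), the filter, 3 scalings, the variance trend, the libraries fitted, a replicate block and each left-out library. Of the wider repair list, the 5 genes with the largest passing change per direction could be named. A gene that this rule would name is not reported here.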

Additional observations from a re-analysis of the deposited data

How the results depend on the processing

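Of the calls of members, 14 of 21 in Diff cells against U87, 21 of 28 in GSCs against U87 and 16 of 23 in Diff cells against GSCs passed in every alternative run, and none of them changed sign. The remaining calls and the libraries that decide them stand beside the genes. Members passing numbered 15 to 26, 22 to 28 and 17 to 27 in the same order over the left-out libraries. Members lower in Diff cells against U87 numbered 2 to 5, and members higher in Diff cells against GSCs 7 to 16. The fit of only the compared lines gave 7 of the latter, and rescaling without mitochondrial genes and RN7SL1 gave 2 of the former. That fit of only the compared lines also ended calls in GSCs against U87. These were BRCA2 (limma adjusted p = 0.0616), FANCD2 (0.0524), NHEJ1 (0.0566), RPA2 (0.0612), TP53BP1 (0.0528) and H2AX. In Diff cells against GSCs it ended those of POLQ (0.0571), APEX1, BRCA2, NBN, TP53BP1 and XRCC1.

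Requiring a change over 1 on the log2 scale left 2812 genes in Diff cells against U87, with 0 members (0 higher, 0 lower), 3908 genes in GSCs against U87, with 3 members (3 higher, 0 lower), and 1836 genes in Diff cells against GSCs, with 0 members (0 higher, 0 lower). With quantile normalization the median shift of a gene's log2 fold change was 0.06 in Diff cells and -0.05 in GSCs, both against U87, and 0.10 between Diff cells and GSCs, and the median over all genes became 0.010, -0.025 and 0.030. Replicate numbers did not pair the libraries, since deviations of same-numbered libraries correlated between -0.0416 and 0.0489. With the replicate number as a block, 18, 27 and 19 members passed in the 3 comparisons, and the libraries did not each correlate best with their own number. TPM keep no depth, so which low values are limited by counting is unknown.

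Medians of routes moved as follows. For Diff cells and U87, the rescaling without mitochondrial genes and RN7SL1 gave 0.24 for break-site signaling, 0.0015 for non-homologous end joining, where the sign turned, 0.23 for resection, 0.36 for homologous recombination, 0.27 for Fanconi anemia, 0.19 for base excision and 0.39 for mismatch repair. Break-site signaling was at 0.23 with a pseudocount of 0.1 and at 0.26 after quantile normalization. Over the left-out libraries it ranged from 0.12 to 0.23, homologous recombination from 0.20 to 0.43 and Fanconi anemia from 0.17 to 0.25. In GSCs against U87 break-site signaling was at 0.27 with a filter at 5 TPM and from 0.17 to 0.27 over the left-out libraries. For Diff cells and GSCs, break-site signaling was at 0.19 in the main fit, turned to -0.10 with that filter and was at 0.26 after the rescaling. Base excision was there at -0.088 after quantile normalization, at -0.081 after the rescaling and from -0.20 to -0.036 over the left-out libraries, and mismatch repair at -0.077 after quantile normalization. Signs also turned over the left-out libraries in GSCs against U87 for resection (-0.18 to 0.020) and polymerase theta end joining (-0.16 to 0.00049). In Diff cells against GSCs they turned for non-homologous end joining (-0.0055 to 0.16) and Fanconi anemia (-0.0082 to 0.066). With the filter at 5 TPM the members below it have no value, and the cause of the other moves was not tested.

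The values that turned sign belonged to members that had not passed, and none passed after turning. For Diff cells and U87, XRCC6 turned to 0.010 after quantile normalization, 0.0086 with median-ratio scaling and 0.024 after the rescaling, and BRCA2 to 0.016, 0.019 and 0.035. The rescaling turned XRCC5 to 0.0015 and MSH6 to 0.0039. For GSCs and U87, quantile normalization turned APEX1 to 0.0095. For Diff cells and GSCs it turned BLM to 0.081, RAD52 to 0.0017, UNG to 0.033 and PMS2 to 0.087. Median-ratio scaling turned RPA1 to 0.0080, UNG to 0.023 and PMS2 to 0.011, and the rescaling turned them to 0.023, 0.038 and 0.025. Leaving out 1 library turned 24 values. Over the left-out libraries the genes concerned ranged as follows for Diff cells and U87: BRCA2 from -0.037 to 0.025, PRKDC from -0.0050 to 0.059 and XRCC6 from -0.079 to 0.021. For GSCs and U87 the ranges were BLM from -0.16 to 0.14, POLB from -0.11 to 0.24, POLQ from -0.16 to 0.00049, PRKDC from -0.14 to 0.030, RBBP8 from -0.22 to 0.021, RNF8 from -0.043 to 0.046 and XRCC4 from -0.0077 to 0.21. For Diff cells and GSCs they were BLM from -0.22 to 0.083, DCLRE1C from -0.0082 to 0.13, FANCA from -0.045 to 0.14, PMS2 from -0.088 to 0.023, PRKDC from -0.0055 to 0.16, RPA1 from -0.11 to 0.00094 and UNG from -0.053 to 0.0095.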
